A study of Mus musculus with 6 samples.

Results

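Synaptic vesicle and release machinery genes encode the proteins with which a neuron fills vesicles with transmitter, docks them at the active zone and fuses them with the membrane when calcium enters. The set was taken by gene name and holds vesicle proteins, SNAREs, synaptotagmins, active zone proteins and vesicular glutamate transporters. All 48 names were found among the 23366 genes of the count table, and all 48 were among the 15731 genes tested after a filter on low counts. RNA came from cerebellar granule neurons that had been isolated from C57BL/6 mice on postnatal day 7 by a Percoll gradient, from cerebella pooled over a litter, and grown in a dish. Every culture received a lentivirus on day 1 in vitro. The control virus was the empty pLKO.1 vector (n = 3) and the knockdown virus was pLKO.1 with a short hairpin RNA against Kdm6b, a demethylase of lysine 27 on histone H3 (n = 3). The control carried no hairpin and 1 hairpin sequence is given, so an effect of lower Kdm6b and an effect of this hairpin cannot be told apart. The labels do not say whether replicates came from separate litters or cultures, and the p-values reflect only how these libraries spread, which may be technical. The day of harvest and any addition of BDNF to a given culture are not assigned to samples in the labels.

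Vesicles are loaded with glutamate by Slc17a7 (VGLUT1) or Slc17a6 (VGLUT2), and synapsins hold them in reserve near the terminal membrane. Rab3 proteins, RIM, Munc13, ELKS, Bassoon and Piccolo tether and prime them at the active zone. The SNAREs syntaxin 1A, SNAP-25 and synaptobrevin then drive fusion under the control of complexins and of synaptotagmins, which sense calcium, and NSF with its SNAP adaptors takes the spent SNARE complexes apart. Granule neurons use this machinery at their parallel fibre synapses on Purkinje cells, and they move from Slc17a6 towards Slc17a7 as they mature.

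Gene counts summed to between 50326298 and 88214069 per library. Kdm6b itself stood at 257.3, 145.9 and 170.5 CPM (counts scaled to library size with TMM factors) in control replicates 1 to 3 and at 88.8, 63.3 and 79.8 CPM in knockdown replicates 1 to 3, so the groups did not overlap (log2 fold change −1.28, SE 0.11, edgeR adjusted p = 0.0282 with the replicate number as a block, and −1.31, SE 0.25, edgeR adjusted p = 0.2155 without it). All 12 granule neuron markers were present, with a summed level of 4608 to 6525 CPM in controls and 4917 to 7329 CPM in knockdowns. In the paired fit described next Barhl1 (log2 fold change 1.63) and Tubb3 (1.025) rose and Etv1 (−1.48) fell. The summed level of 8 pericyte and fibroblast markers was lower in the knockdown, at 3723 to 9569 CPM against 11290 to 20474 CPM in controls. The collagen genes Col1a1, Col1a2 and Col3a1 made up most of this sum. In the paired fit 5 of the 8 fell (these 3, Pdgfrb and Acta2), beside 5.4% of all genes. Rgs5 went the other way, with means of 6.98 CPM in controls and 11.2 CPM in knockdowns (log2 fold change 0.42), and did not pass. The 9 GABAergic interneuron markers summed to 253 to 489 CPM in controls and 176 to 383 CPM in knockdowns, with Gad1 lower and Lhx1 higher in the paired fit and 5 of the 9 above 0. The 8 microglia markers summed to 43.7 to 90.5 CPM in controls and 9.13 to 49.9 CPM in knockdowns. In control replicate 2 Tmem119 alone was at 42.7 of the 43.7 CPM, and C1qa was at 0.12 CPM. Tmem119 was the 1 microglia marker called in the paired fit, and it fell (log2 fold change −1.41, edgeR adjusted p = 0.0282). P2ry12 had a paired value above 0 (0.23). The 8 Purkinje cell markers summed to 79.2 to 138 CPM in controls and 61.4 to 103.5 CPM in knockdowns. Of these Pcp2, Skor2 and Ppp1r17 were at or near 0 in every library, the 5 tested all had a paired value below 0, and Car8 fell. The part of these cells in the differences below was not tested, and in bulk RNA fewer cells of a type and less RNA per cell cannot be told apart.

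The main fit, which has no block, called 0 of the 48 genes. When the replicate number was kept as a block, 9 of the 48 passed (edgeR quasi-likelihood test, adjusted p over all genes under 0.05). This blocked fit is called the paired fit here, and its pairing was found in the data and is not stated in the labels. Below, a gene is said to change, rise or fall where it passed in the paired fit. Stx1a, Syt5, Unc13b, Syt3 and Rab3a rose, and Sv2c, Rims3, Napb and Erc1 fell. The 9 are 18.8% of the genes, against 7.98% of all genes tested in the same fit and 9.74% of the tested genes that average 5 CPM or more, a level that all 48 reach. The 5 that rose compare with 2.58% of all genes called higher, and the 4 that fell with 5.4% called lower. The median log2 fold change (knockdown over control) was 0.12 over the 48 genes and 0.02 over all genes tested. The direction was shared by all 3 pairs for each of the 9, a property that the paired test rewards. The same held for 29 of the 48 genes and for 9435 of the 15731 genes tested.

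Without the block 0 of the 48 genes passed (edgeR adjusted p from 0.216 upward), against 0.00636% of all genes, which is 1 gene. At an unadjusted p under 0.05 that fit gave 12 of 48, 4 higher and 8 lower, beside 10.6% of all genes. DESeq2 without the block called 6 of 48, namely Sv2c, Slc17a7, Napb, Erc1, Stx1a and Syt5, beside 3.61% of all genes, and limma-voom called 0. Knockdown values lay wholly above the controls for 3 of the genes (Stx1a, Syt5 and Unc13b) and wholly below for 8 (Sv2c, Rims3, Slc17a7, Syt2, Doc2b, Napb, Erc1 and Bsn). Among all genes tested 9.21% lay wholly above and 7.44% wholly below. Leaving out replicate 1 ended every call of the paired fit, in the 48 genes as in all genes (0%). Without replicate 2 it called 2 of the 48 (Sv2c and Syt5), beside 0.332% of all genes, and without replicate 3 it called 8, beside 8.06% of all genes. DESeq2 with the block called 17 of the 48, beside 21.9% of all genes, and the 8 genes it added were Syp, Syt1, Syt2, Syt4, Svop, Bsn, Slc17a7 and Doc2b. With 3 libraries a side, 0.1 is the smallest p of an exact permutation test.

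**Figure D1:**
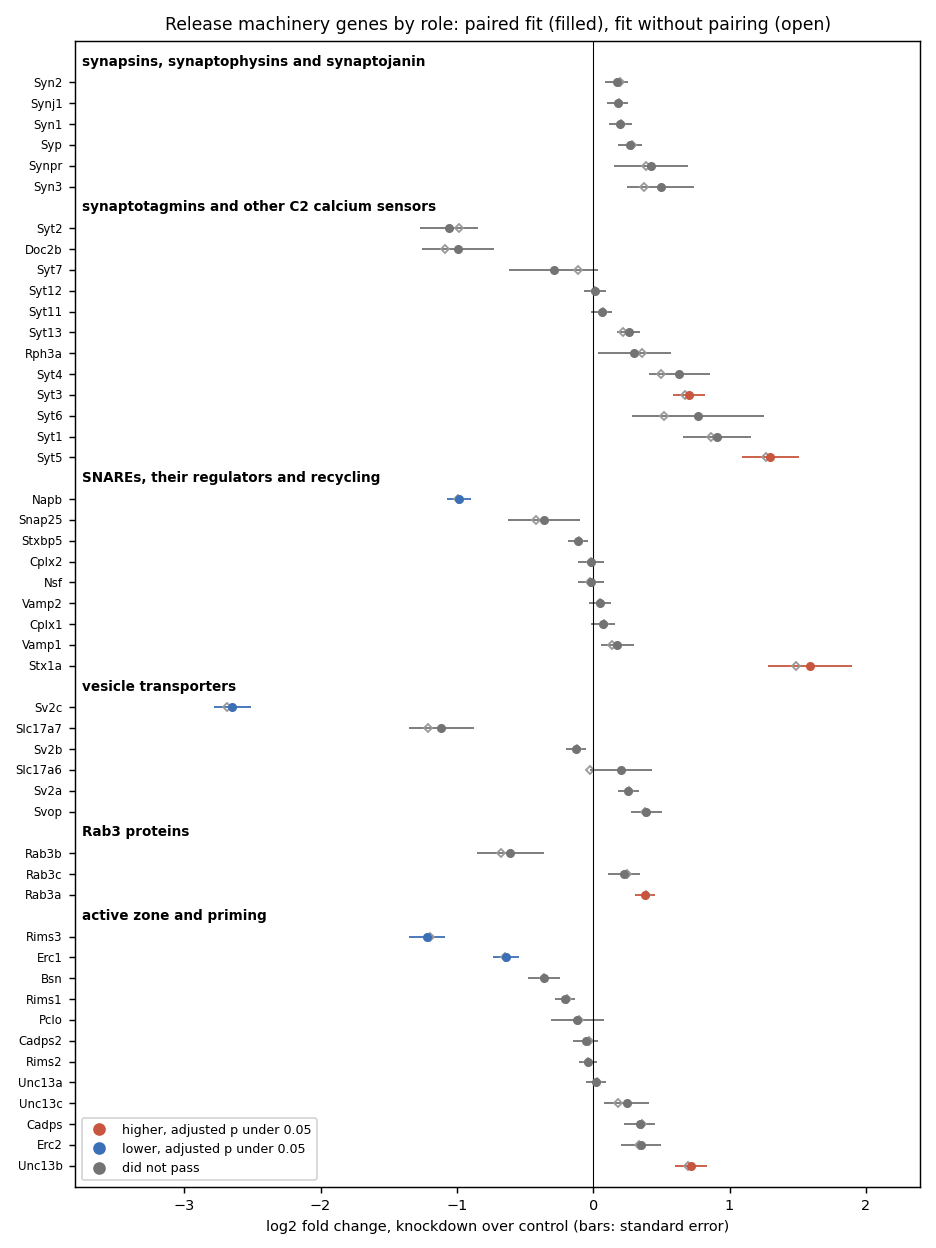
Log2 fold change (knockdown over control) for each of the 48 genes, grouped by role, from the paired fit (filled points, bars are the standard error; red passed and rose, blue passed and fell, grey did not pass) and from the fit without pairing (open diamonds). Sv2c lies furthest to the left at −2.65 and Stx1a furthest to the right at 1.59 in the paired fit, and most other genes lie within 1 of 0.

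The vesicle transporters held the deepest fall. Sv2c belongs to the SV2 family of vesicle glycoproteins, which resemble transporters and act in calcium-triggered release. The gene is annotated at chr13:95954594-96132577, minus strand, in build GRCm38 (GENCODE M21), as are the positions below. It stood at 28.5, 93.3 and 24.3 CPM in control replicates 1 to 3 and at 3.87, 13.9 and 4.90 CPM in knockdown replicates 1 to 3. Replicate 2 was the highest library in each group, and the groups did not overlap. The log2 fold change of Sv2c was −2.65 (SE 0.14, edgeR adjusted p = 0.0282) in the paired fit and −2.69 (SE 0.74, edgeR adjusted p = 0.339) without the block. Without replicate 1 the paired value was −2.53 (edgeR adjusted p = 0.0933). Per exon length Sv2c was the 41st of the 48 genes in the controls, at 5.02 ± 3.99 RPKM (SD, n = 3), and the last in the knockdowns, at 0.780 ± 0.571 RPKM (SD, n = 3).

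The other SV2 genes did not share that fall. Sv2a, the widespread member and the target of the drug levetiracetam, was at 334, 349 and 278.5 CPM in the controls, against 425, 410 and 318 CPM with the hairpin, higher within every pair (log2 fold change 0.26, SE 0.08, edgeR adjusted p = 0.0928 in the paired fit). Sv2b, the member typical of glutamatergic neurons, had a log2 fold change of −0.13 (SE 0.07). Svop, a vesicle protein related to the SV2 family, was at 77.2 ± 24.1 CPM in controls and 100.4 ± 24.9 CPM in knockdowns (SD, n = 3) and did not pass (edgeR adjusted p = 0.0869 in the paired fit).

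Slc17a7, the vesicular glutamate transporter of mature granule neurons, stood at 403, 735 and 300 CPM in control replicates 1 to 3 and at 181, 228 and 212 CPM in knockdown replicates 1 to 3. All knockdown libraries were below all controls, and control replicate 2 was far above the other controls. Its log2 fold change was −1.11 (SE 0.24, edgeR adjusted p = 0.0562) in the paired fit and −1.21 (SE 0.34, edgeR adjusted p = 0.342) without the block. DESeq2 without the block called it (log2 fold change −1.22, DESeq2 adjusted p = 0.0273), and so did the paired fit with no filter on low counts or without replicate 3. Slc17a6, the transporter of younger granule neurons, stood at 75.4, 8.33 and 32.0 CPM in the controls, against 68.1, 15.6 and 30.15 CPM with the hairpin. The replicates of Slc17a6 differed by 9.05-fold among controls, the widest range of the 48 genes, and the knockdown differed from the control of the same number by −0.15, 0.91 and −0.09 on the log2 scale in pairs 1 to 3. Its log2 fold change was 0.20 (SE 0.23) in the paired fit and −0.02 (SE 0.84) without the block.

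Among the SNAREs and their regulators Stx1a rose and Napb fell, and the other 7 genes did not pass in the paired fit, where 7.98% of all genes did. Stx1a encodes syntaxin 1A, the plasma membrane SNARE of exocytosis. Stx1a is annotated at chr5:135023482-135051100, plus strand. Counts placed Stx1a at 34.0, 12.7 and 34.6 CPM in control replicates 1 to 3 and at 95.9, 68.6 and 63.1 CPM in knockdown replicates 1 to 3. Each knockdown library was above all controls, and control replicate 2 was the lowest library. Its log2 fold change was 1.59 (SE 0.31) in the paired fit, at an edgeR adjusted p of 0.04999 that lies at the threshold, and 1.49 (SE 0.40, edgeR adjusted p = 0.334) without the block. Leaving out replicate 2 gave a paired value of 1.17 (edgeR adjusted p = 0.0594), and leaving out replicate 1 gave 1.64 (edgeR adjusted p = 0.125). Per exon length Stx1a moved from 35th to 19th of the 48 genes, from 10.2 ± 4.68 to 28.5 ± 6.60 RPKM (SD, n = 3).

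Napb encodes beta-SNAP, a brain adaptor of NSF for taking SNARE complexes apart. Napb is annotated at chr2:148693985-148732467, minus strand. It stood at 358, 330 and 257 CPM in the controls, against 160, 171 and 142 CPM with the hairpin, so that the highest knockdown library lay below the lowest control. The log2 fold change of Napb was −0.99 (SE 0.09, edgeR adjusted p = 0.0282) in the paired fit and −0.995 (SE 0.16, edgeR adjusted p = 0.216) without the block. DESeq2 without the block called Napb as well (DESeq2 adjusted p = 1.47e-05). The paired value moved to −0.90 when replicate 1 was dropped (edgeR adjusted p = 0.0985) and to −1.02 when replicate 2 was (edgeR adjusted p = 0.0515). The ATPase gene Nsf itself was at 255 ± 52.0 CPM in controls and 251 ± 36.6 CPM in knockdowns (SD, n = 3; log2 fold change −0.01, SE 0.09).

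Cplx2, a complexin that clamps and promotes fusion, was the most abundant of the 48 genes per exon length in controls at 257 ± 63.8 RPKM (SD, n = 3). It stood at 1490, 1408 and 909 CPM in the controls, against 1508, 1343 and 912 CPM with the hairpin, and libraries of the same replicate number were nearly level. Cplx1 (log2 fold change 0.07, SE 0.09) and the synaptobrevins Vamp2 (0.05, SE 0.08) and Vamp1 (0.18, SE 0.12) did not pass in the paired fit, nor did the tomosyn gene Stxbp5 (−0.11, SE 0.07). Snap25, which supplies the remaining plasma membrane SNARE, stood at 734, 1285 and 494 CPM in the controls, against 849, 596 and 432 CPM with the hairpin. Its pairs went in different directions, up in replicate 1 and down in replicates 2 and 3 (log2 fold change −0.36, SE 0.27, edgeR adjusted p = 0.386 in the paired fit).

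**Figure D2:**
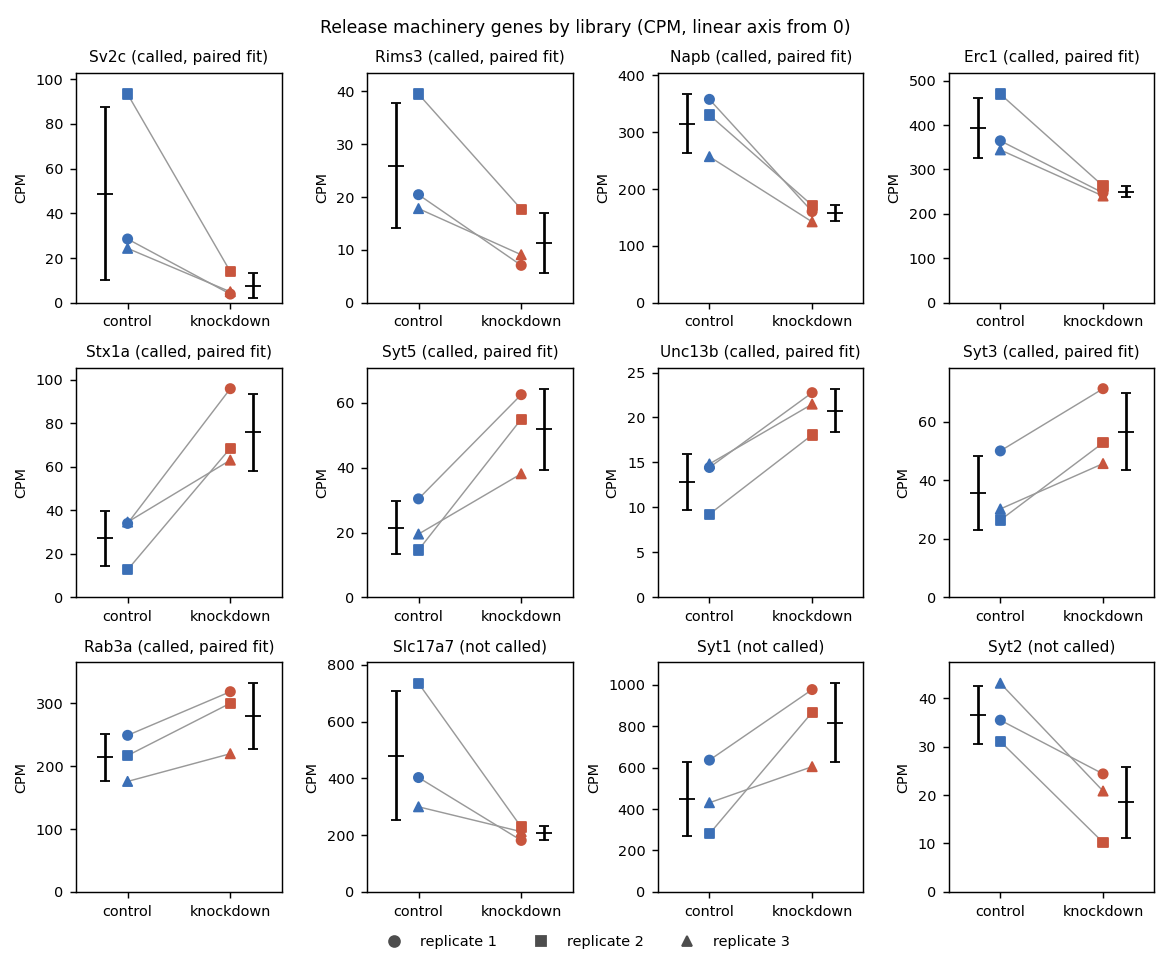
CPM of 12 genes in each library on linear axes from 0, with grey lines joining libraries of the same replicate number and black marks for the mean ± SD of each group (n = 3). Sv2c, Rims3, Napb and Erc1 fall in all 3 pairs, Stx1a, Syt5, Unc13b, Syt3 and Rab3a rise in all 3, and control replicate 2 is the highest library for Sv2c (93.3 CPM) and Slc17a7 (735 CPM) and the lowest for Stx1a (12.7 CPM).

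Promoter sequence is shown for the genes with the deepest fall and the highest rise, Sv2c and Stx1a. Each line gives the 250 bases upstream of a transcript start in RefSeq's annotation of build GRCm38.p6, read on the gene's strand with CG dinucleotides in capitals. Sv2c lies on the minus strand (window chr13:96132578-96132827) and Stx1a on the plus strand (window chr5:135023232-135023481).
Sv2c: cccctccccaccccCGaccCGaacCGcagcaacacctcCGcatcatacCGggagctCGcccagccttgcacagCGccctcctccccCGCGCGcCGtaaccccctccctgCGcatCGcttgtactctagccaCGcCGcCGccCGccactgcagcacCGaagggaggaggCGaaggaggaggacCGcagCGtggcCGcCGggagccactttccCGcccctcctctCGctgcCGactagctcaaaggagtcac
Stx1a: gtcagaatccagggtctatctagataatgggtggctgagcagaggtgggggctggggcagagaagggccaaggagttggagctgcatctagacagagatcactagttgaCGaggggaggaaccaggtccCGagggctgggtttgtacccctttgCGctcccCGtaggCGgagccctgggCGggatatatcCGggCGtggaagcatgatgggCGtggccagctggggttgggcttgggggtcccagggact
The Sv2c window holds 26 CG dinucleotides and the Stx1a window 9. The median was 13 over the 51 windows of the 37 genes of the set with an entry in the table and 6 over all 32851 windows. Over the 9 windows of the 8 changed genes with an entry the counts ran from 6 in Rims3 to 36 in Erc1, with a median of 15. These are descriptions of the sequence, and chromatin at these windows was not measured here.

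Synaptotagmins and other C2 domain proteins that bind calcium or phospholipid went in both directions. In the paired fit 2 of 12 were called higher and 0 lower, beside 2.58% and 5.4% of all genes, with a median log2 fold change of 0.28. Of the 12, 1 lay wholly above the controls and 2 wholly below, beside 9.21% and 7.44% of all genes. At an unadjusted p under 0.05 without the block 2 were higher and 2 lower, beside 10.6% of all genes in either direction. Syt5, a calcium-binding synaptotagmin of dense-core and synaptic vesicles, stood at 30.4, 14.6 and 19.5 CPM in control replicates 1 to 3 and at 62.6, 55.0 and 38.1 CPM in knockdown replicates 1 to 3. Every knockdown library lay above every control. Syt5 is annotated at chr7:4539765-4547541 and Syt3 at chr7:44384102-44400187. Syt5 had a log2 fold change of 1.30 (SE 0.21, edgeR adjusted p = 0.0403) in the paired fit and 1.27 (SE 0.32, edgeR adjusted p = 0.309) without the block, and without replicate 1 the paired value was 1.44 (edgeR adjusted p = 0.105). Syt3, a high-affinity calcium sensor, stood at 50.0, 26.4 and 30.15 CPM in the controls, against 71.2, 52.7 and 45.6 CPM with the hairpin. The groups overlapped, since control replicate 1 lay above knockdown replicate 3, but Syt3 was higher within each pair (log2 fold change 0.70, SE 0.12, edgeR adjusted p = 0.0414). The Syt3 call was lost when any 1 replicate number was left out (paired values 0.54 to 0.80, edgeR adjusted p from 0.0562 to 0.110).

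Syt1, the main fast calcium sensor of release in most forebrain neurons, stood at 636, 280 and 430 CPM in the controls, against 977, 867 and 604 CPM with the hairpin. It was higher in all 3 pairs, by 0.62, 1.63 and 0.49 on the log2 scale, and control replicate 1 lay above knockdown replicate 3. Syt1 did not pass in the paired fit (log2 fold change 0.91, SE 0.25, edgeR adjusted p = 0.0817) and did pass there with library totals as the only scaling. Syt2, the fast sensor of many hindbrain and inhibitory neurons, went the other way, at 35.5, 31.1 and 43.1 CPM in the controls, against 24.4, 10.2 and 20.8 CPM with the hairpin. The groups of Syt2 did not overlap, and it stood just outside the threshold (log2 fold change −1.06, SE 0.21, edgeR adjusted p = 0.0523 in the paired fit). The paired fit did call Syt2 when factors were RLE, upper-quartile or left out, and under each other filter tried.

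Syt4, a synaptotagmin that does not bind calcium in the usual way, was the second most abundant of the 48 genes per exon length in controls, at 240 ± 146 RPKM (SD, n = 3). It stood at 1555, 432 and 820 CPM in the controls, against 1855, 1035 and 1074 CPM with the hairpin, higher in each pair, with overlapping groups (log2 fold change 0.63, SE 0.22, edgeR adjusted p = 0.127). Doc2b, a high-affinity sensor linked to spontaneous release, stood at 48.01, 97.7 and 43.5 CPM in the controls, against 34.3, 28.7 and 26.02 CPM with the hairpin, with no overlap (−0.99, SE 0.27, edgeR adjusted p = 0.0781). Syt6 and Rph3a, the Rab3 effector rabphilin, differed mainly in replicate 2, where the pair differences were 2.20 and 1.09 on the log2 scale against −0.22 and −0.17 in replicate 1. Syt7, a slow sensor of asynchronous release, had log2 differences of 0.59, −1.10 and −0.36 in pairs 1 to 3. Syt11, Syt12 and Syt13 had log2 fold changes from 0.01 to 0.26 and did not pass.

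In the active zone and priming group 1 of 12 genes rose and 2 fell in the paired fit, beside 2.58% higher and 5.4% lower among all genes. Rims3 encodes a short RIM protein without the Rab3-binding domain of the long forms. Rims3 is annotated at chr4:120854816-120896579, plus strand. It stood at 20.5, 39.5 and 17.8 CPM in control replicates 1 to 3 and at 7.08, 17.7 and 9.09 CPM in knockdown replicates 1 to 3. The highest knockdown library, replicate 2, lay just under the lowest control. Rims3 had a log2 fold change of −1.22 (SE 0.13, edgeR adjusted p = 0.0282) in the paired fit and −1.20 (SE 0.45, edgeR adjusted p = 0.454) without the block. The paired call was lost without replicate 1 (−1.07, edgeR adjusted p = 0.0985) and also when replicate 2 was dropped (−1.27, edgeR adjusted p = 0.0562). The long RIM genes Rims1 (log2 fold change −0.21, SE 0.07) and Rims2 (−0.04, SE 0.07), the scaffolds that recruit calcium channels and vesicles, did not pass.

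Erc1 encodes ELKS1, an active zone scaffold that is also made outside neurons. Erc1 is annotated at chr6:119570796-119848167, minus strand. It stood at 364.5, 469.6 and 344 CPM in the controls, against 247, 263 and 240.2 CPM with the hairpin. The groups did not overlap, and the knockdown libraries lay close together (250.1 ± 11.6 CPM, SD, n = 3). Erc1 had a log2 fold change of −0.64 (SE 0.09, edgeR adjusted p = 0.0362) in the paired fit and −0.65 (SE 0.16, edgeR adjusted p = 0.289) without the block. Without replicate 1 the paired value was −0.68 (edgeR adjusted p = 0.117), and leaving out replicate 2 gave −0.56 (edgeR adjusted p = 0.0623). Its neuronal paralogue Erc2, at 37.7 ± 12.3 and 47.7 ± 14.2 CPM (SD, n = 3), was higher in pairs 1 and 2 and level in pair 3 (0.35, SE 0.15, edgeR adjusted p = 0.169).

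Unc13b, the Munc13-2 priming factor, was the least abundant of the 48 genes per exon length in controls at 0.564 ± 0.137 RPKM (SD, n = 3). Unc13b is annotated at chr4:43058953-43264871, plus strand. It stood at 14.4, 9.25 and 14.8 CPM in the controls, against 22.8, 18.1 and 21.5 CPM with the hairpin, without overlap. Unc13b had a log2 fold change of 0.72 (SE 0.12, edgeR adjusted p = 0.0409) in the paired fit and 0.69 (SE 0.22, edgeR adjusted p = 0.392) without the block, and the call was lost without replicate 1 (0.75, edgeR adjusted p = 0.126) or replicate 2 (0.58, edgeR adjusted p = 0.0740). Unc13a, the main Munc13 of glutamatergic terminals, was at 340 ± 80.4 and 347 ± 98.4 CPM (SD, n = 3), and the cerebellar form Unc13c had a log2 fold change of 0.25 (SE 0.17).

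The giant scaffold Bassoon (Bsn) stood at 376, 361 and 425 CPM in the controls, against 332, 304 and 270 CPM with the hairpin, all knockdowns below all controls. Bsn did not pass in the paired fit (log2 fold change −0.36, SE 0.12, edgeR adjusted p = 0.113), and its partner Piccolo (Pclo) had a log2 fold change of −0.12 (SE 0.20). Cadps2, a dense-core vesicle priming factor typical of granule neurons, had the highest level per exon length in this group, at 50.9 ± 14.7 RPKM in controls (SD, n = 3). Cadps2 stood at 642, 455 and 365.5 CPM in the controls, against 688, 395 and 349 CPM with the hairpin (−0.06, SE 0.09). Its paralogue Cadps was higher in all 3 pairs and did not pass (0.34, SE 0.12, edgeR adjusted p = 0.120).

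Of the Rab3 GTPases, which bring vesicles to RIM, Rab3a rose. Rab3a is annotated at chr8:70754679-70758677, plus strand. It stood at 249, 217 and 176 CPM in control replicates 1 to 3 and at 319, 300.4 and 220.0 CPM in knockdown replicates 1 to 3. Control replicate 1 lay above knockdown replicate 3, while the differences within pairs were close to each other at 0.35, 0.47 and 0.32 on the log2 scale. Rab3a had a log2 fold change of 0.38 (SE 0.07, edgeR adjusted p = 0.0475) in the paired fit and 0.39 (SE 0.20, edgeR adjusted p = 0.540) without the block. The Rab3a call was lost with RLE factors (0.37, edgeR adjusted p = 0.0512) and when any 1 replicate number was left out (0.32 to 0.40, edgeR adjusted p from 0.0926 to 0.161). Rab3c (0.23, SE 0.12) and the scarce Rab3b (7.07 ± 3.07 and 4.43 ± 1.21 CPM, SD, n = 3; −0.61, SE 0.24) did not pass.

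Synapsins, synaptophysins and synaptojanin had 0 of 6 genes called in the paired fit, against 7.98% of all genes. All 6 had a log2 fold change above 0, from 0.17 to 0.49 with a median of 0.24. Among all 15731 genes tested 8195 were above 0. Of the 6 genes 5 were higher within every pair, and 9435 of the 15731 kept 1 direction, up or down, in all pairs. Syp, an abundant membrane protein of vesicles, stood at 723, 664 and 534 CPM in the controls, against 909, 829 and 598 CPM with the hairpin, with overlapping groups (0.27, SE 0.09, edgeR adjusted p = 0.109). Syn1 had a log2 fold change of 0.20 (SE 0.08), Syn2 0.17 (SE 0.08) and Synj1, a phosphatase that helps uncoat vesicles, 0.18 (SE 0.08). Syn3 and Synpr had larger values with larger errors (0.49, SE 0.25, and 0.43, SE 0.27), and their pair 2 differences of 1.22 and 1.23 were above those of the other pairs. Over these same libraries the 7 pan-neuronal markers summed to 1729 to 2548 CPM in controls and 1888 to 3005 CPM in knockdowns. The pericyte and fibroblast sum moved the other way as given above. The part of these cells in the values of the 6 genes was not tested.

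**Figure D3:**
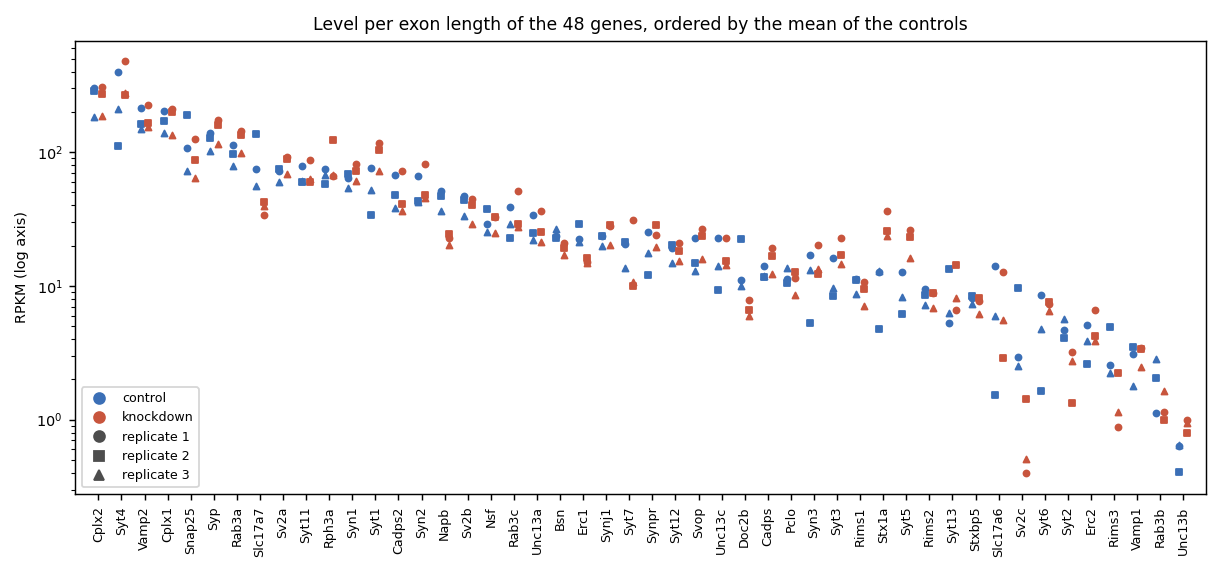
Level per exon length (RPKM, log axis) of the 48 genes in each library, ordered by the mean of the controls, with replicate numbers as point shapes. Levels run from 257 RPKM for Cplx2 to 0.564 RPKM for Unc13b in controls, and the gap between groups is widest for Sv2c.

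Per exon length the set spanned a wide range of levels, and neighbours in the order mostly overlapped. In controls the highest means were those of Cplx2 (257 ± 63.8 RPKM), Syt4 (240 ± 146 RPKM), Vamp2 (175 ± 35.1 RPKM), Cplx1 (171 ± 32.0 RPKM), Snap25 (123 ± 59.7 RPKM) and Syp (123 ± 18.5 RPKM; SD, n = 3 each). Each of these means differed from the next by less than the larger of their SDs. At the low end Vamp1 (2.80 ± 0.900 RPKM), Rab3b (2.01 ± 0.872 RPKM) and Unc13b followed Rims3 (3.25 ± 1.48 RPKM; SD, n = 3 each). Summed over the 48 genes the level was 14571, 12330 and 10397 CPM in control replicates 1 to 3 and 15873, 12894 and 10334 CPM in knockdown replicates 1 to 3, so replicate 1 was the highest and replicate 3 the lowest in both groups.

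The spread between replicates was wide for many of the genes. The highest control exceeded the lowest by more than 1 on the log2 scale for 16 of the 48 genes, and the same held among knockdowns for 6. After Slc17a6 the widest control ranges were those of Syt6 (5.19-fold), Sv2c (3.84-fold), Syt4 (3.60-fold) and Syn3 (3.24-fold). Pair 2 gave the largest absolute difference for 29 of the 48 genes, pair 1 for 12 and pair 3 for 7. The median absolute log2 difference of the set was 0.25, 0.60 and 0.22 in pairs 1 to 3, beside 0.24, 0.34 and 0.21 over all genes tested. Control replicate 2 was the lowest control for 19 of the genes and the highest for 15.

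Ratios of paralogues within a library do not depend on how libraries are scaled, so 14 ratios of read counts were compared by exact two-sided permutation tests. None can pass, and 4 reached the smallest possible p. The log2 ratio of Sv2c to Sv2a fell by 2.90, from −2.99 ± 0.941 to −5.89 ± 0.956 (SD, n = 3; exact p = 0.1, adjusted over the 14 ratios 0.35). Syt2 to Syt1 went from −3.55 ± 0.535 to −5.53 ± 0.794 (SD, n = 3; exact p = 0.1, adjusted 0.35), and Sv2b to Sv2a from 0.107 ± 0.128 to −0.278 ± 0.107 (SD, n = 3; exact p = 0.1, adjusted 0.35). Erc2 to Erc1 went up by 0.99, from −3.42 ± 0.704 to −2.43 ± 0.416 (SD, n = 3; exact p = 0.1, adjusted 0.35). In these 4 the groups did not overlap and all 3 pairs had the same sign.

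The ratio of Slc17a7 to Slc17a6 was lower in the knockdown within each pair, at log2 values of 2.42, 6.46 and 3.23 in controls and 1.41, 3.87 and 2.82 in knockdowns. The groups overlapped because control replicates 1 and 3 lay below knockdown replicate 2 (exact p = 0.5, adjusted 0.84). Without control replicate 2 the difference in this ratio shrank from −1.34 to −0.12. That comparison keeps knockdown replicate 2, the highest knockdown at 3.87, so it does not compare whole pairs. Rab3b to Rab3a (difference −0.99) and Cadps2 to Cadps (−0.40) were also lower in all 3 pairs, with overlapping groups (exact p = 0.2, adjusted 0.4, for each). Cplx1 to Cplx2 (0.09), Vamp1 to Vamp2 (0.13), Syn2 to Syn1 (−0.03) and Rab3c to Rab3a (−0.16) changed sign between pairs. Counts were not divided by gene length here, so only differences between groups are read from these ratios.

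**Figure D4:**
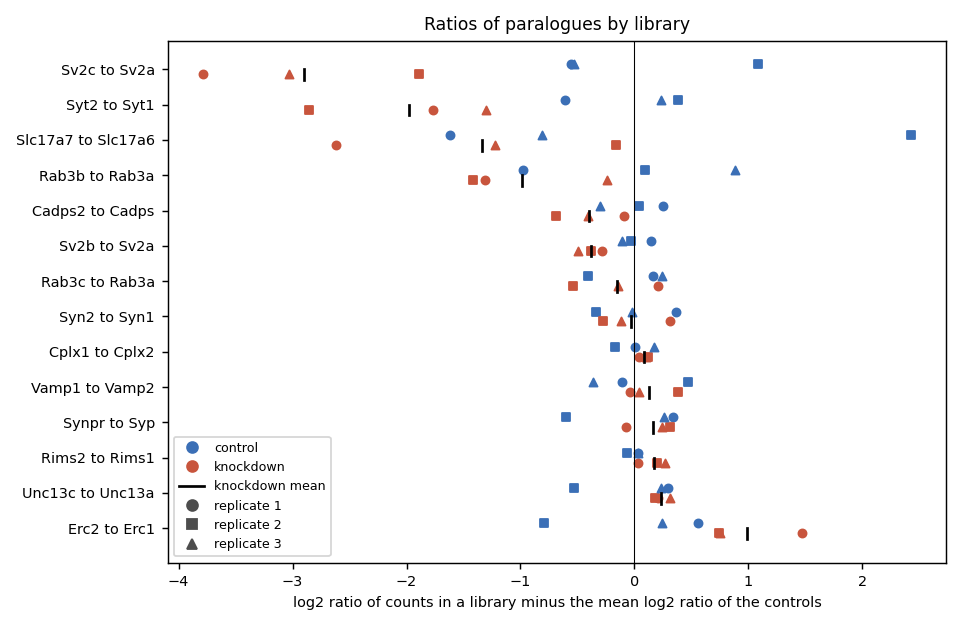
Log2 ratio of the counts of 2 paralogues in each library, minus the mean log2 ratio of the controls, with point shapes for replicate numbers and a black bar at the knockdown mean. Sv2c to Sv2a, Syt2 to Syt1 and Sv2b to Sv2a lie wholly below the controls and Erc2 to Erc1 wholly above, while control replicate 2 stands apart in Slc17a7 to Slc17a6.

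The hairpin strand in the labels is shown because a word of 7 bases inside it, in capitals, was picked from 3′ UTR words in an earlier analysis of these counts and is therefore no independent evidence here. Beside it are the 30 bases around the match in 6 genes, in the longest annotated 3′ UTR of a protein-coding transcript (GENCODE M21, build GRCm38, plus strand for Syt2, Sv2a, Erc2 and Slc17a6, minus strand for Syt11 and Napb).
Kdm6b hairpin strand: gttcgttACAAGTGagaactc
Napb, word at chr2:148697018-148697024: gcaacctttatACAAGTGacttagtttagg
Syt2, word at chr1:134748696-134748702: accatctgaagACAAGTGctttgcacagag
Syt11, word at chr3:88744860-88744866: aaaaaaaaaatACAAGTGtcaaactaaaaa
Sv2a, word at chr3:96194425-96194431: caattcaggctACAAGTGtgaagcctggat
Erc2, word at chr14:28476060-28476066: gcttgctgtgaACAAGTGctgctgctggtg
Slc17a6, word at chr7:51671084-51671090: gttgctgcaaaACAAGTGttaataaaatgt
With Syt4, whose site is not shown, 7 of the 48 genes (14.6%) hold the word, beside 1706 of the 14769 genes tested that could be searched (11.6%). Of the 7 genes Napb fell in the paired fit and none rose, while among the 1706 genes 258 fell and 19 rose. Among all 15731 genes tested 850 fell (5.4%) and 406 rose (2.58%). The paired log2 fold changes of the other genes with the word were −1.06 for Syt2 (edgeR adjusted p = 0.0523, all knockdowns below all controls), 0.06 for Syt11, 0.20 for Slc17a6, 0.26 for Sv2a, 0.35 for Erc2 and 0.63 for Syt4. Sv2c, Rims3 and Erc1, the other genes that fell, do not hold these letters in the searched 3′ UTR. When only genes without the word were fitted, 6 of 41 genes of the set were called in the paired fit, beside 6.64% of all genes fitted, and Stx1a (1.56, edgeR adjusted p = 0.0528) and Rab3a (0.36, edgeR adjusted p = 0.0577) were not among them. A match is a description of the sequence, and binding of the hairpin was not measured.

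Beyond the 48 genes a list of 123 other names from the vesicle cycle was examined, of which 121 were in the table and 115 were tested. In the paired fit 3 rose and 6 fell (7.83%, beside 7.98% of all genes). Without the block 0 passed, beside 0.00636% of all genes. At an unadjusted p under 0.05 that fit gave 15 of 115, beside 10.6% of all genes. The median log2 fold change of the list was −0.02. Doc2a, the paralogue of Doc2b, rose from 1.93, 0.460 and 0.762 CPM in controls to 8.72, 3.79 and 3.498 CPM in knockdowns (log2 fold change 2.43, SE 0.24, edgeR adjusted p = 0.0282), so the groups did not overlap. The adaptor gene Apba2 (Mint2) rose by 0.52 (SE 0.09) and the clathrin light chain gene Cltb by 0.37 (SE 0.07) on the log2 scale. Mctp1, a membrane protein with C2 domains, fell from 12.6, 50.7 and 15.6 CPM to 3.71, 9.45 and 7.05 CPM (−1.78, SE 0.26, edgeR adjusted p = 0.0362). Snap29, a SNARE of membrane trafficking, fell from 34.9, 35.2 and 37.4 CPM to 12.1, 11.6 and 13.55 CPM (−1.53, SE 0.08, edgeR adjusted p = 0.0282), with no overlap. Synj2, Ppfibp1 and Sh3glb1 fell too. The searched 3′ UTR of Snap29 holds the 7-base word above 2 times, and those of the other genes named here lack it.

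Libraries were made with a stranded kit, per the labels. Exons of 18 of the 48 genes overlap a gene on the opposite strand in GENCODE M21 and those of Bsn overlap 1 on the same strand. Among the changed genes these are Rab3a (Mpv17l2) and Erc1 (Gm44317), and in the synapsin group Syn1 (Araf), Syn2 (Timp4) and Syn3 (Timp3). Whether the counting used strand is not stated in the labels, and levels of these genes are uncertain for that reason. The same holds for the targeted gene Kdm6b, whose exons overlap Kdm6bos. It also holds for Doc2a (Ino80e), Snap29 (Pi4ka), Synj2 (Serac1) and Ppfibp1 (Gm44085).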

How the data were processed

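RNA-seq gene counts of 3 control and 3 knockdown libraries were used as deposited by the authors. Per the submitters' processing notes the tools were Trimmomatic, TopHat2, HTSeq, edgeR and DESeq2 with build mm9, and no version or strand setting is given in the sources used here. Tallies that name no gene were left out of library sizes. Of the gene counts and tallies together, reads in no feature were 12.1 to 15%, ambiguous reads 0.406 to 0.509% and reads that align more than once 16 to 19.3%. Genes passed edgeR's filterByExpr (minimum count 10, minimum total 15), which kept 15731 of 23366. Counts were scaled by TMM and tested with the quasi-likelihood test of edgeR 4.0.16 in R 4.3.3, with Benjamini-Hochberg adjustment over all genes tested at 0.05. DESeq2 1.42.0 and limma 3.58.1 (voom) were alternatives, and the fit was tested on simulated data. The fit without a block is the main one. A second fit, blocked by replicate number, is printed beside it because libraries of the same number deviated together from their group means (Pearson r 0.76, 0.72 and 0.69 for replicates 1 to 3 across genes, and −0.55 to −0.19 for different numbers), which is a pairing found in the data. Deviations from a group mean cancel within the group, so the negative values follow from the positive ones and are no separate evidence of pairing. RPKM is CPM per kilobase of exon union in GENCODE M21 (GRCm38), matched by gene name only. Ratios had 0.5 counts added. Promoters are RefSeq's. Library values were printed for genes called in either fit and for the gene with the highest mean RPKM and that with the smallest p in each role; other genes with library values (Slc17a7, Slc17a6, Syt1, Syt2, Doc2b, Bsn and Snap25) were chosen after their values were seen. The genes, lists and ratios were chosen with earlier results of these data known. The values of 1 gene among the other vesicle cycle genes are not reported here.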

Additional observations from a re-analysis of the deposited data

How the results depend on the processing

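The count of called genes was 0 without the block under RLE factors, upper-quartile factors, library totals, no filter and a minimum mean of 5 CPM. It was also 0 with limma-voom and on the removal of any 1 library (0 to 0). It was 6 with DESeq2, beside 3.61% of all genes, and 9 with the replicate block, beside 7.98%. With the replicate block it was 17 with DESeq2 (21.9% of all genes) and 0 to 8 when 1 replicate number was left out (2 without replicate 2), and the other scalings and filters gave 9 to 11. Fewer samples enter the fits that leave out a number; the cause of the other changes was not tested. The replicate block moved 9 single genes past the threshold and changed no other call. Without the block, Syt12 changed sign with RLE factors (−0.00485), no filter (−0.00189), DESeq2 (−0.00483) and the genes that lack the 3′ UTR word (−0.0106), an alternative chosen after seeing the data. With library totals alone the log2 fold changes of Cplx2 (0.0376), Rims2 (0.023), Cadps2 (0.026), Slc17a6 (0.0343) and Nsf (0.0377) changed sign, and Slc17a6 also did with limma-voom (0.195) and the replicate block (0.202). Genes whose log2 fold change without the block changed sign when 1 library was left out were Syn2 (−0.128 to 0.428), Syt7 (−0.852 to 0.152), Syt11 (−0.124 to 0.212), Syt12 (−0.121 to 0.121), Syt13 (−0.188 to 0.737), Snap25 (−0.706 to 0.0272), Vamp1 (−0.114 to 0.332), Vamp2 (−0.134 to 0.225), Stxbp5 (−0.199 to 0.00443), Cplx1 (−0.0548 to 0.262), Cplx2 (−0.218 to 0.168), Sv2b (−0.267 to 0.0442), Rab3c (−0.0957 to 0.472), Rims2 (−0.148 to 0.0722), Unc13a (−0.221 to 0.233), Unc13c (−0.0735 to 0.581), Pclo (−0.246 to 0.0421), Cadps2 (−0.39 to 0.219), Slc17a6 (−0.755 to 0.912), Nsf (−0.158 to 0.146), Rph3a (−0.0121 to 0.513). Ratios that did so were Vamp1 to Vamp2 (−0.0528 to 0.361), Cplx1 to Cplx2 (−0.00135 to 0.171), Syn2 to Syn1 (−0.199 to 0.155), Synpr to Syp (−0.139 to 0.332), Unc13c to Unc13a (−0.0352 to 0.381), Rab3c to Rab3a (−0.362 to 0.0318). None of these genes was called in the paired fit. All 48 genes averaged 5 CPM or more. Which of the number of libraries (3 in each group), their spread and their unknown origin limits the precision was not tested.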
